A study of Mus musculus with 7 samples.

Results

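The Sprouty, Spred, Dusp and Etv genes analysed here are 10 genes that ERK signalling is known to switch on: Spry1, Spry2, Spry4, Spred1, Spred2, Dusp4, Dusp6, Etv1, Etv4 and Etv5. They were taken by symbol from a list of named genes, drawn up with earlier results of these data known, and all 10 were found among the 17422 genes that every library lists. Levels were measured by RNA sequencing of cells sorted for the red fluorescent protein DsRed, in 7 mouse libraries. Of these, 3 are gliomas labelled PDGF-B, 3 are gliomas labelled EGFRvIII, and 1 is an ungrafted progenitor culture carrying PDGF-B.

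The cells of every group started as neural precursors of Balb/c embryos, taken on embryonic day 14 and grown in medium with human bFGF and EGF at 10 ng/ml. The gliomas labelled PDGF-B are described as wild-type precursors that received retroviral vectors for PDGF-B and DsRed. Those labelled EGFRvIII are described as Ink/Arf -/- precursors that received EGFRvIII, a shortened EGF receptor that signals without ligand, and DsRed. In both models 20000 cells were placed in the brain of adult BALB/c mice after 10 days, and tumours were taken at the first neurological signs. The culture is of wild-type cells that carry PDGF-B and DsRed and were sorted without grafting. The labels call the libraries of each glioma group biological replicates. The promoter of the vectors and how long this culture was grown are not stated in the labels. The effects of oncogene and of genotype cannot be told apart, since each glioma group has its own of both.

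RAS proteins, switched on by growth factor receptors, drive a kinase cascade that ends in ERK. ERK induces its own brakes: Sprouty and Spred proteins act on receptor and RAS signalling upstream, and the Dusp phosphatases remove the activating phosphates of MAP kinases. It also raises the ETS transcription factors Etv1, Etv4 and Etv5, which Capicua, a repressor that ERK inactivates, otherwise holds down. The mRNAs of these genes are widely read as a record of pathway output, and Etv1 and Etv5 are known in glial precursors of the brain.

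Egfr and Pdgfb went against the labels of all 6 gliomas. Egfr stood at 4552 ± 833 CPM in gliomas labelled PDGF-B and 31.2 ± 8.63 CPM in gliomas labelled EGFRvIII (SD, n = 3 each), with 282 CPM in the culture. Pdgfb stood at 3.27 ± 1.49 CPM and 316 ± 60.9 CPM in the same order (SD, n = 3 each), with 245 CPM in the culture. CPM is the read count relative to library size, after the authors' scaling between libraries. Every direction below therefore refers to libraries as labelled, and no result could be repeated on gliomas that match their label. The libraries held 32513754 to 39062584 recovered reads, so 3 reads correspond to 0.0818 to 0.0909 CPM. On the first principal component over the gliomas, PDGF-B replicate 3 stood nearest to the EGFRvIII-labelled libraries, at -5.77 against -89.3 and -88.7 for the other two and 37.2 to 102 for the gliomas labelled EGFRvIII. Markers of microglia and macrophages, 12 genes, were all lower in gliomas labelled PDGF-B (12 of 12 called, 10 with voom weights). Their summed levels were 401 to 1344 CPM, against 5015 to 13613 CPM in those labelled EGFRvIII. On leaving out any 1 glioma other than PDGF-B replicate 3, only 4 to 21 genes were called in the whole table. Of those, 2 to 10 were lower in gliomas labelled PDGF-B, so not all 12 marker calls could hold there. In the culture the 12 markers summed to 2.39 CPM, with Trem2, C1qb and Tyrobp at 0. As a check of its labelled cell type, 8 neural stem markers summed to 7674 CPM in the culture, with Nes at 1341 CPM and Sox2 at 397 CPM. They summed to 754 to 2275 CPM in gliomas labelled PDGF-B and 1557 to 2425 CPM in gliomas labelled EGFRvIII. The 10 oligodendrocyte precursor markers summed to 11312 to 20958 CPM in gliomas labelled PDGF-B and 9713 to 11013 CPM in gliomas labelled EGFRvIII. In the culture they summed to 5277 CPM, of which 1 gene gave 3071 CPM. Between the glioma groups, 2 of 10 oligodendrocyte precursor, 2 of 8 myelin and 1 of 7 astrocyte markers were called, against 3.35% of all genes. The called markers were all higher in gliomas labelled PDGF-B. The list medians were log2 fold changes of 0.66, 0.59 and -0.30 in that order. Most astrocyte markers were thus lower there, down to -1.23, and the myelin list reached down to -1.09. Of the 8 stem, 8 neuron and 8 vascular markers measured, limma and voom weights called 0, with 0, 2 and 6 at an unadjusted limma p under 0.05. In these bulk libraries fewer cells of a type and less RNA per cell cannot be told apart.

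Stretches of the Dusp6 and Spry2 promoters are shown because each holds the octamer that Capicua is known to bind, the DNA element through which ERK is coupled to many of these genes. Capitals mark the octamer, which lies on the opposite strand in both. The sequences are from RefSeq, build GRCm38.p6, run 5′ to 3′ along the gene and go from position -100 to position 20, counted from 1 at the first transcribed base. The Dusp6 stretch is chr10:99263131-99263250 on the plus strand and the Spry2 stretch is chr14:105896800-105896919 on the minus strand.
Dusp6: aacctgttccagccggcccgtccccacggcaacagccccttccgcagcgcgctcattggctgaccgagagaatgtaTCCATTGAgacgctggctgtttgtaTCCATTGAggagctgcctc
Spry2: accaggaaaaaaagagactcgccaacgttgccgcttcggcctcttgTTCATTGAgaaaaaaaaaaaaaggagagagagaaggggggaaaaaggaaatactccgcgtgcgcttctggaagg

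Dusp6 carries the octamer TCAATGGA at positions -24 to -17 and again at 2 to 9, on either side of its start site. Spry2 carries TCAATGAA at -54 to -47. The search covered both strands of windows of 300 bases, 250 before and 50 after the start. It used the forms TGAATGAA, TGAATGGA, TCAATGAA and TCAATGGA, and no match overlapped another. Of 9 windows available for 7 of the genes (Spry1, Spry2, Spred1, Spred2, Dusp6 and, with a pair of start sites each, Etv1 and Etv5), 2 held an octamer, against 3.84% of all 32851 windows. Windows with TCAATGGA made up 0.67% of all, and 2 windows in all held it more than once. The ETS site CCGGAAG, the AP-1 site TGACTCA and the cyclic AMP site TGACGTCA occurred in 0 of the 9 windows and in 8.86%, 5.20% and 1.79% of all windows. Spry4, Dusp4 and Etv4 have no entry in that table.

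Spry1 (ENSMUSG00000037211, mm10 chromosome 3, 37639947 to 37644598) encodes a Sprouty protein, an inhibitor of receptor tyrosine kinase signalling. It stood at 287, 446 and 204 CPM in gliomas labelled PDGF-B, at 239, 226 and 211 CPM in gliomas labelled EGFRvIII, and at 106 CPM in the culture. All 6 gliomas lay above the culture, and the glioma groups overlapped because PDGF-B replicate 3 was the lowest of the 6. Spry2 (ENSMUSG00000022114, chromosome 14, 105891947 to 105896819), a Sprouty gene with the same inhibitory role, stood at 127, 172 and 167 CPM in gliomas labelled PDGF-B, 149.6, 150.1 and 161 CPM in gliomas labelled EGFRvIII, and 166 CPM in the culture. Its highest library was 1.35-fold its lowest, and 6.41% of the 10639 genes with a mean of at least 10 CPM spanned a smaller range. Spry4 (ENSMUSG00000024427, chromosome 18, 38586247 to 38601415) stood at 212, 255 and 215 CPM in gliomas labelled PDGF-B, 135, 108 and 230.02 CPM in gliomas labelled EGFRvIII, and 122 CPM in the culture. EGFRvIII replicate 3 reached the level of the gliomas labelled PDGF-B, and the other two of its group lay near the culture. Of the exon bases of Spry1, 24.4% are shared with Gm42922, annotated on the opposite strand, which averaged 0.604 CPM. No other gene of the 10 shares exon bases with another annotated gene.

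The Spred genes encode membrane-associated relatives of the Sprouty proteins that recruit neurofibromin, the RAS inactivator, to RAS. Spred1 (ENSMUSG00000027351, chromosome 2, 117121374 to 117182279) stood at 400.02, 418 and 378 CPM in gliomas labelled PDGF-B, 343, 326 and 296 CPM in gliomas labelled EGFRvIII, and 245 CPM in the culture. These 3 sets did not overlap, and the steps between them were small, with means of 399 ± 19.99 CPM and 322 ± 23.7 CPM in the glioma groups (SD, n = 3 each). Spred2 (ENSMUSG00000045671, chromosome 11, 19924375 to 20024026) stood at 132, 142 and 145 CPM in gliomas labelled PDGF-B, 131, 118 and 133 CPM in gliomas labelled EGFRvIII, and 112 CPM in the culture. It was the steadiest of the 10 genes, with a highest library 1.29-fold its lowest, and 3.79% of genes with a mean of at least 10 CPM spanned less.

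Dusp6 (ENSMUSG00000019960, chromosome 10, 99263231 to 99267489) encodes a cytoplasmic phosphatase specific for ERK. It stood at 146, 160.3 and 197 CPM in gliomas labelled PDGF-B, 229, 216 and 209.9 CPM in gliomas labelled EGFRvIII, and 152 CPM in the culture. It was the only one of the 10 genes whose values in gliomas labelled PDGF-B all lay below those in gliomas labelled EGFRvIII. The macrophage markers given above were lower in the same libraries, and their part in the Dusp6 level was not tested. Dusp4 (ENSMUSG00000031530, chromosome 8, 34807297 to 34819894), a nuclear MAP kinase phosphatase, was the least abundant, at 7.25, 6.48 and 15.0 CPM in gliomas labelled PDGF-B, 9.21, 9.21 and 8.64 CPM in gliomas labelled EGFRvIII, and 17.9 CPM in the culture. Its lowest value rested on 214 reads, against at least 2514 reads in every library for each of the other 9 genes. PDGF-B replicate 3 stood apart from its group and closest to the culture, which was the highest library.

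Etv4 (ENSMUSG00000017724, chromosome 11, 101769742 to 101785371) encodes an ETS activator and stood at 267, 278 and 179 CPM in gliomas labelled PDGF-B, 113, 129 and 175 CPM in gliomas labelled EGFRvIII, and 72.8 CPM in the culture. PDGF-B replicate 3 and EGFRvIII replicate 3 all but met, at 179 and 175 CPM, and both lay well above the culture. Etv5 (ENSMUSG00000013089, chromosome 16, 22381309 to 22439719), a close relative of Etv4, stood at 156, 217 and 206 CPM in gliomas labelled PDGF-B, 127, 135 and 135 CPM in gliomas labelled EGFRvIII, and 193 CPM in the culture. The culture fell within the range of the gliomas labelled PDGF-B and above all of those labelled EGFRvIII. Etv1 (ENSMUSG00000004151, chromosome 12, 38779380 to 38870484), the remaining ETS gene, stood at 153, 157 and 131 CPM in gliomas labelled PDGF-B, 72.8, 104 and 127 CPM in gliomas labelled EGFRvIII, and 202 CPM in the culture. Its order was thus the reverse of that of Etv4 in respect of the culture, which was the highest library for Etv1 and the lowest for Etv4.

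**Figure D1:**
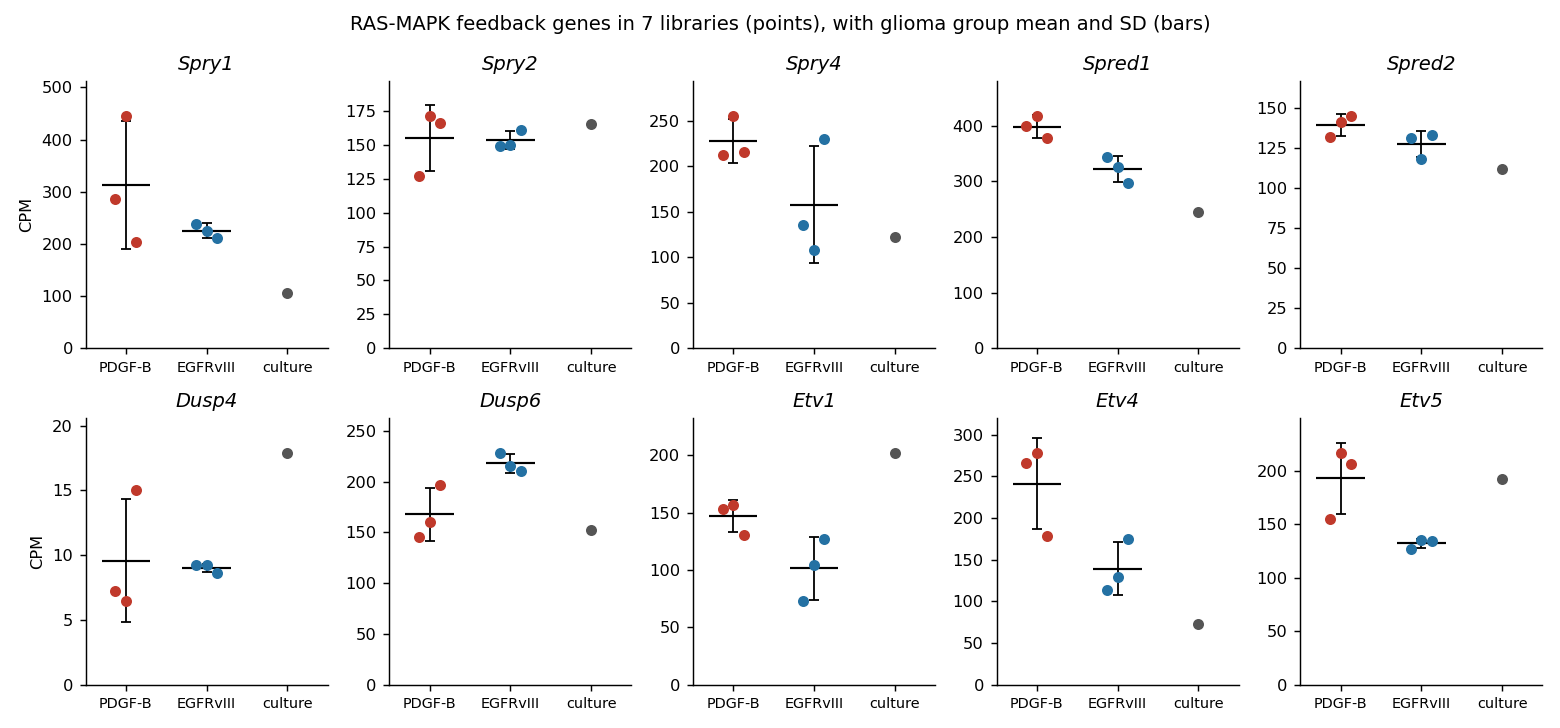
CPM of each of the 10 genes in every library (points), on a linear axis from 0, with the mean and SD of each glioma group of 3 as bars. Etv4, Etv5, Etv1 and Spred1 are higher in every glioma labelled PDGF-B than in any labelled EGFRvIII, Dusp6 is lower in all of them, and Etv1 and Dusp4 are highest in the culture.

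Genes were set beside each other per kilobase of merged exon, which joins all annotated exons of a gene and can exceed the transcript expressed. That length was 13296 bases for Etv1, 3104 for Etv4 and 4103 for Etv5, so the ranks and shares depend on it. On this scale Spry1 was the most abundant of the 10 genes in gliomas labelled PDGF-B, at a mean of 107 CPM per kb. Etv4 followed at 77.7 and Spry2 at 74.4. In gliomas labelled EGFRvIII the order was Spry1 at 77.4, Spry2 at 73.6 and Dusp6 at 69.6 CPM per kb. Single libraries departed from these orders: Spry2 exceeded Spry1 in PDGF-B replicate 3 (79.8 and 70.3 CPM per kb) and in EGFRvIII replicate 3 (77.2 and 72.5 CPM per kb). In PDGF-B replicate 3 both Spry2 and Dusp6 exceeded Etv4 (79.8, 62.8 and 57.6 CPM per kb). Dusp6 exceeded Spry2 in EGFRvIII replicate 1 (72.96 and 71.67 CPM per kb). In the culture Spry2 came first at 79.5 CPM per kb, then Dusp6 at 48.5 and Etv5 at 46.97. The make-up of the Etv group on this scale separated all 6 gliomas from the culture. Etv4 held 63.5%, 58.1% and 48.9% of the group in gliomas labelled PDGF-B, 50.1%, 50.5% and 57.1% in gliomas labelled EGFRvIII, and 27.4% in the culture. Etv5 held 28.0%, 34.3% and 42.8% in gliomas labelled PDGF-B, 42.4%, 39.95% and 33.2% in gliomas labelled EGFRvIII, and 54.9% in the culture. The Etv4 shares of the glioma groups overlapped. Among the Sprouty genes, Spry1 held 36.0% to 53.0% of the group in gliomas labelled PDGF-B, 36.6% to 45.1% in gliomas labelled EGFRvIII, and 25.8% in the culture, where Spry2 held 56.2%. These shares do not depend on the scaling between libraries, and rest on 1 culture library.

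**Figure D2:**
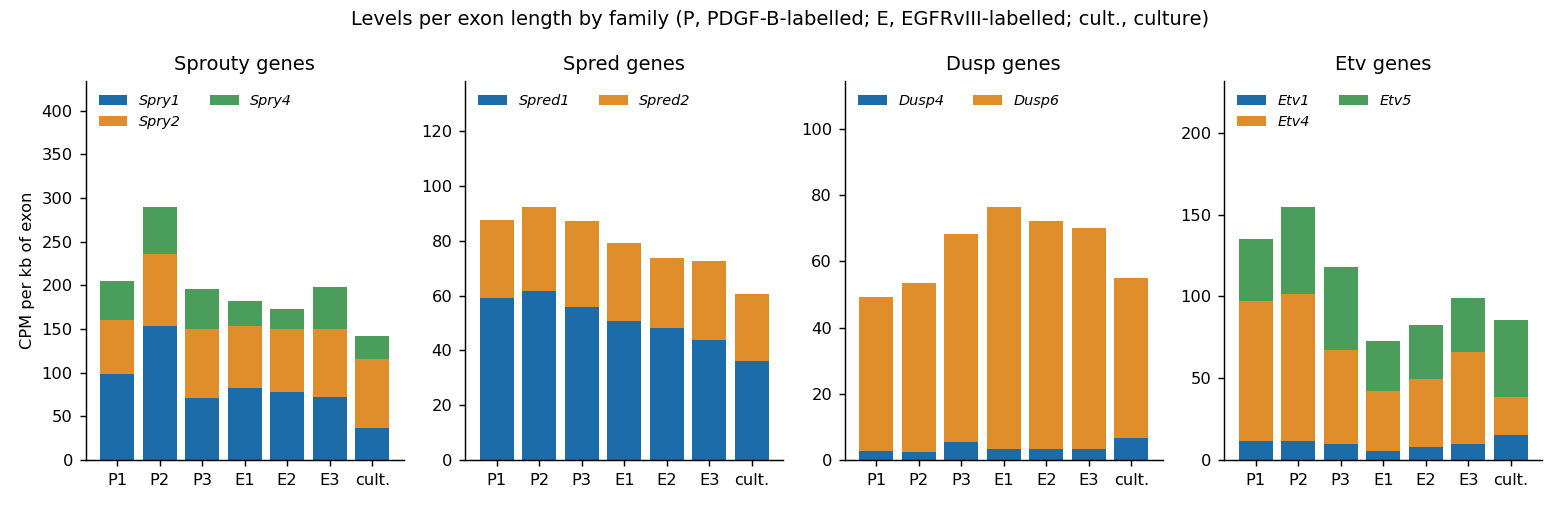
CPM per kb of merged exon in each library, stacked by gene within the Sprouty, Spred, Dusp and Etv groups (P, gliomas labelled PDGF-B; E, gliomas labelled EGFRvIII; cult., culture). Etv4 fills 48.9% to 63.5% of the Etv column in the gliomas and 27.4% in the culture, and Dusp4 is at most 11.9% of the Dusp column in any library.

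The first comparison asked whether the mRNA levels of the 10 genes differ between the glioma models. The ETS genes stood higher in gliomas labelled PDGF-B by 1.73-fold for Etv4, 1.46-fold for Etv5 and 1.45-fold for Etv1. Dusp6 stood at 0.769 times the EGFRvIII-labelled mean, but none of the 10 genes passed the test. The summed oligodendrocyte precursor markers given above were also higher in gliomas labelled PDGF-B, and their part in the Etv levels was not tested. In limma, with p-values adjusted over all genes and a threshold of 0.05, 0 of 10 were called, against 3.35% of all genes (0.717% higher and 2.63% lower). Without adjustment, limma gave 3 genes a p under 0.05, Etv1, Etv4 and Etv5, against 16.7% of all genes, and voom weights also gave 0 calls. The genes called over the whole table numbered from 4 without PDGF-B replicate 1 to 1282 without PDGF-B replicate 3, with 0 of the 10 called on leaving out any glioma. Without PDGF-B replicate 2, and without EGFRvIII replicate 1, limma gave 0 of the 10 an unadjusted p under 0.05. Etv4 averaged 241 ± 54.5 CPM in gliomas labelled PDGF-B and 139 ± 32.0 CPM in gliomas labelled EGFRvIII (SD, n = 3 each), with a log2 fold change of 0.79 ± 0.25 (SE, adjusted p by limma = 0.170). Etv5 averaged 193 ± 33.0 CPM and 132 ± 4.63 CPM in the same groups (SD, n = 3 each), with a log2 fold change of 0.53 ± 0.19 (SE, adjusted p by limma = 0.208). For Dusp6 the means were 168 ± 26.3 CPM and 218 ± 9.54 CPM (SD, n = 3 each), with a log2 fold change of -0.39 ± 0.18 (SE, adjusted p by limma = 0.332).

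Values did not overlap between the glioma groups for 5 of the 10 genes, 4 higher (Spred1, Etv1, Etv4, Etv5) and 1 lower (Dusp6), against 22.9% of all genes (10.3% higher and 12.6% lower). The 10 log2 fold changes ran from -0.39 to 0.79 with a median of 0.36, where the median over all genes was 0.00. Their median size without sign was 0.40, against 0.36 over all genes and 0.28 over the 10639 genes with a mean of at least 10 CPM. For Spry2 the fitted difference was 0.00, with a 95% interval of -0.42 to 0.43 on the log2 scale, and for Spred2 it was 0.13, with an interval of -0.23 to 0.49. The interval for Etv4 reached from 0.20 to 1.38 and that for Spry4 from -0.08 to 1.27. Over the same libraries the log2 fold change was 7.20 ± 0.26 (SE, adjusted p by limma = 0.000187) for Egfr and -6.65 ± 0.34 (SE, adjusted p by limma = 0.000838) for Pdgfb.

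The ratio of Etv4 to Dusp6 within a library, singled out after the values were seen, was 1.83, 1.74 and 0.908 in gliomas labelled PDGF-B, against 0.496, 0.6 and 0.833 in gliomas labelled EGFRvIII, and 0.479 in the culture. PDGF-B replicate 3 and EGFRvIII replicate 3 were again the nearest to each other. That the groups did not overlap follows from the choice of this pair, since Etv4 was higher and Dusp6 lower in every glioma labelled PDGF-B. This ratio does not depend on the scaling between libraries.

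The other comparisons set the gliomas of each label against the progenitor culture, which carries PDGF-B and was not grafted. They share the 1 culture library, which is assumed to vary like the gliomas. In gliomas labelled PDGF-B, Etv4 was called higher, 3.31-fold above the culture, with a log2 fold change of 1.70 ± 0.35 (SE, adjusted p by limma = 0.0280). It was the single call among the 10 genes, against 9.45% of all genes (7.73% higher and 1.73% lower), and 3 had an unadjusted p under 0.05 in limma, against 27.2%. The Etv4 call ended without PDGF-B replicate 1 (limma adjusted p = 0.0831), without PDGF-B replicate 2 (0.0671) and in a fit of only the 4 libraries compared (0.0662). Leaving out PDGF-B replicate 3 gave 3 calls, adding Spry1 as higher (log2 fold change 1.75, limma adjusted p = 0.0193) and Dusp4 as lower (log2 fold change -1.38, limma adjusted p = 0.0492). With all libraries Spry1 stood 2.95-fold above the culture, with a log2 fold change of 1.49 ± 0.41 (SE, adjusted p by limma = 0.0645). Spred1 stood at 1.63-fold, with a log2 fold change of 0.70 ± 0.24 (SE, adjusted p by limma = 0.115). The median size of the 10 log2 fold changes without sign was 0.58, against 0.64 over all genes. Etv5 and Spry2 had fitted differences of -0.01 and -0.11, with 95% intervals of -0.63 to 0.60 and -0.70 to 0.49, and both signs turned when libraries were scaled by their totals.

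In gliomas labelled EGFRvIII, 0 of 10 genes were called against the culture, against 9.55% of all genes (8.20% higher and 1.34% lower), with 3 at an unadjusted limma p under 0.05, against 23.9%, and 0 with voom weights. Those 3 were Etv1, Spry1 and Etv4. Etv1 stood at 0.502 times the culture level, with a log2 fold change of -1.03 ± 0.33 (SE, adjusted p by limma = 0.105). Spry1 stood 2.12-fold above it, with a log2 fold change of 1.08 ± 0.41 (SE, adjusted p by limma = 0.156), and Etv4 1.91-fold above it, with one of 0.91 ± 0.35 (SE, adjusted p by limma = 0.171). Dusp4 stood at 0.535 times the culture level in gliomas labelled PDGF-B and 0.503 times in those labelled EGFRvIII (adjusted p by limma = 0.237 and 0.284). In gliomas labelled EGFRvIII minus culture the median size of the 10 changes was 0.53, against 0.54 over all genes. All gliomas of a label lay on 1 side of the culture for 7 of the 10 genes in those labelled PDGF-B, against 78.9% of all genes (40.9% above and 38.0% below it), and for 9 of 10 in those labelled EGFRvIII, against 63.7% of all genes (34.1% above and 29.6% below it). Against the culture, 7 of 10 oligodendrocyte precursor markers were called higher in gliomas labelled PDGF-B (6 with voom weights), against 7.73% of all genes. In those labelled EGFRvIII 4 of 10 were called higher (4 with voom weights), against 8.20%. Of 8 neural stem markers, 4 were called lower in each glioma group (2 in each with voom weights), against 1.73% and 1.34% of all genes. All 12 macrophage markers were called higher in gliomas labelled PDGF-B and EGFRvIII (2 and 5 with voom weights). In that order, 6 and 3 of 8 myelin markers (1 and 0 with voom weights) and 3 and 4 of 8 vascular markers (0 and 1) were called higher. So were 2 and 1 of 7 astrocyte markers (2 and 0) and 3 and 0 of 8 neuron markers (0 and 0). The astrocyte medians were -2.26 and -1.96. Mitochondrial genes took 4.20% to 6.14% of reads in gliomas labelled PDGF-B, 5.04% to 6.05% in gliomas labelled EGFRvIII, and 9.53% of reads in the culture. The part of these markers and of the mitochondrial share in the levels of the 10 genes was not tested.

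**Figure D3:**
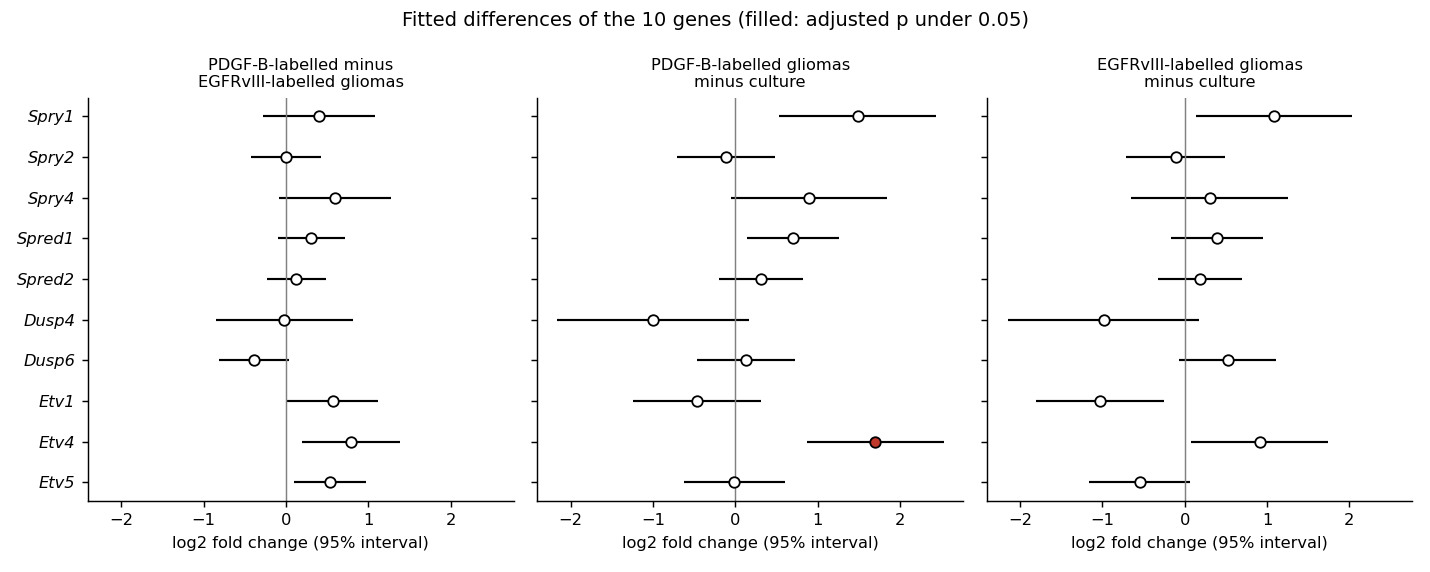
Log2 fold change of each gene with its 95% interval in gliomas labelled PDGF-B minus EGFRvIII, and in gliomas of each label minus the culture (filled point, limma adjusted p under 0.05). Etv4 against the culture in gliomas labelled PDGF-B, at 1.70, is the 1 filled point of the 30.

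The rest of the pathway was described by lists chosen with earlier results of these data known. Of 11 other ERK-induced genes, 0 were called between the glioma groups, against 3.35% of all genes, and 0 with voom weights. Without adjustment 2 had a limma p under 0.05, against 16.7% of all genes, and the median log2 fold change was -0.20. In gliomas labelled EGFRvIII against the culture 2 of the 11 were called, 1 higher and 1 lower, against 9.55% of all genes. There 5 had an unadjusted limma p under 0.05, against 23.9%. Against the culture, Phlda1, a gene long used as a readout of ERK, was higher in gliomas labelled EGFRvIII, at 220.1 ± 45.8 CPM (SD, n = 3) against 78.6 CPM (log2 fold change 1.47 ± 0.36, SE, adjusted p by limma = 0.0474), a call that voom weights did not make. Il17rd, which encodes Sef, a membrane inhibitor of the cascade, was lower there, at 7.06 ± 1.40 CPM (SD, n = 3) against 24.1 CPM (log2 fold change -1.78 ± 0.39, SE, adjusted p by limma = 0.0315). None of the 11 was called in gliomas labelled PDGF-B against the culture, against 9.45% of all genes. Of them 6 had an unadjusted limma p under 0.05, against 27.2% of all genes. The one of smallest p, the immediate early gene Egr1, stood at 657 ± 229 CPM (SD, n = 3) against 1914 CPM (limma adjusted p = 0.0590). Each of these 3 genes lay on the same side of the culture in the other label, without a call. Egr1 stood at 823 ± 101 CPM in gliomas labelled EGFRvIII (SD, n = 3, limma adjusted p = 0.130). In gliomas labelled PDGF-B, Phlda1 stood at 161 ± 44.8 CPM and Il17rd at 14.6 ± 3.22 CPM (SD, n = 3 each, limma adjusted p = 0.131 and 0.262). Of 7 other MAP kinase phosphatase genes measured, 1 is also among the 11. Between the glioma groups 0 were called, against 3.35% of all genes, with a median log2 fold change of -0.52. There 2 had an unadjusted limma p under 0.05, against 16.7%. Against the culture 3 did in each label, against 27.2% and 23.9%. In gliomas labelled EGFRvIII 0 were called against the culture, against 9.55% of all genes. In those labelled PDGF-B 1 was, against 9.45%: Dusp8, a phosphatase of stress-activated kinases. It stood at 42.9 ± 11.3 CPM (SD, n = 3) in gliomas labelled PDGF-B against 17.4 CPM in the culture (log2 fold change 1.27 ± 0.31, SE, adjusted p by limma = 0.0464), a call that voom weights did not make. In gliomas labelled EGFRvIII it stood at 33.2 ± 2.05 CPM (SD, n = 3, limma adjusted p = 0.117 against the culture).

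The 22 cascade genes ran from the adaptor Grb2 through the RAS and RAF genes to the ERK kinases and their substrates. Of these, 1 was called between the glioma groups, against 3.35% of all genes. It was Rps6ka1, an ERK-activated ribosomal S6 kinase gene, at 9.65 ± 6.33 CPM in gliomas labelled PDGF-B and 55.3 ± 16.4 CPM in gliomas labelled EGFRvIII (SD, n = 3 each, log2 fold change -2.66 ± 0.44, SE, adjusted p by limma = 0.0312). The macrophage markers were lower in the same libraries, and their part was not tested. The median log2 fold change of the cascade list was 0.00. Of 16 genes for RAS and ERK brakes and ETS repressors, 0 were called in any comparison, 0 with voom weights, and 2, 0 and 2 at an unadjusted limma p under 0.05, in gliomas labelled PDGF-B against EGFRvIII and in each against the culture. Among them Cic, the gene for Capicua, named because its octamer was searched and after its values were seen, stood at 257 ± 24.7 CPM in gliomas labelled PDGF-B and 241 ± 54.5 CPM in gliomas labelled EGFRvIII (SD, n = 3 each), and at 244 CPM in the culture. Of 12 other activating ETS genes, 3 were called lower in gliomas labelled PDGF-B than in those labelled EGFRvIII, against 2.63% of all genes. They were Fli1, Spi1 and Elf4, of which Spi1 is the master regulator of macrophages. Spi1 stood at 6.40 ± 4.57 CPM in gliomas labelled PDGF-B and 58.6 ± 33.2 CPM in gliomas labelled EGFRvIII (SD, n = 3 each, log2 fold change -3.29 ± 0.58, SE, adjusted p by limma = 0.0326), and at 0 CPM in the culture, where 3 reads would be 0.0868 CPM.

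Upstream, 3 of 15 measured receptor tyrosine kinase genes were called between the glioma groups, against 3.35% of all genes. Egfr, Erbb3 and Erbb2 were each higher in gliomas labelled PDGF-B. Erbb3, a receptor that signals with other ErbB members, stood at 132 ± 13.6 CPM in gliomas labelled PDGF-B and 56.6 ± 8.29 CPM in gliomas labelled EGFRvIII (SD, n = 3 each, log2 fold change 1.22 ± 0.18, SE, adjusted p by limma = 0.0262). Of 14 measured ligand genes, 3 were called between the glioma groups, against 3.35% of all genes. One of them, Pdgfb, is like Egfr in the receptor count a driver gene whose level went against the labels. All 3, Pdgfb, Igf1 and Hgf, were lower in gliomas labelled PDGF-B, against 2.63% of all genes. The macrophage markers were lower in the same libraries, and their part in the Igf1 and Hgf levels was not tested. Tgfa, an EGF receptor ligand, was higher than in the culture in both glioma groups, at 293 ± 94.5 CPM in gliomas labelled PDGF-B and 191 ± 18.7 CPM in gliomas labelled EGFRvIII (SD, n = 3 each), against 62.0 CPM (limma adjusted p = 0.0157 and 0.0422), of which voom weights did not make the call in gliomas labelled EGFRvIII. Fgfr3, a receptor for fibroblast growth factors, was lower in both, at 10.5 ± 6.96 CPM in gliomas labelled PDGF-B and 3.53 ± 2.03 CPM in gliomas labelled EGFRvIII (SD, n = 3 each), against 194 CPM in the culture (limma adjusted p = 0.0206 and 0.00521).

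**Figure D4:**
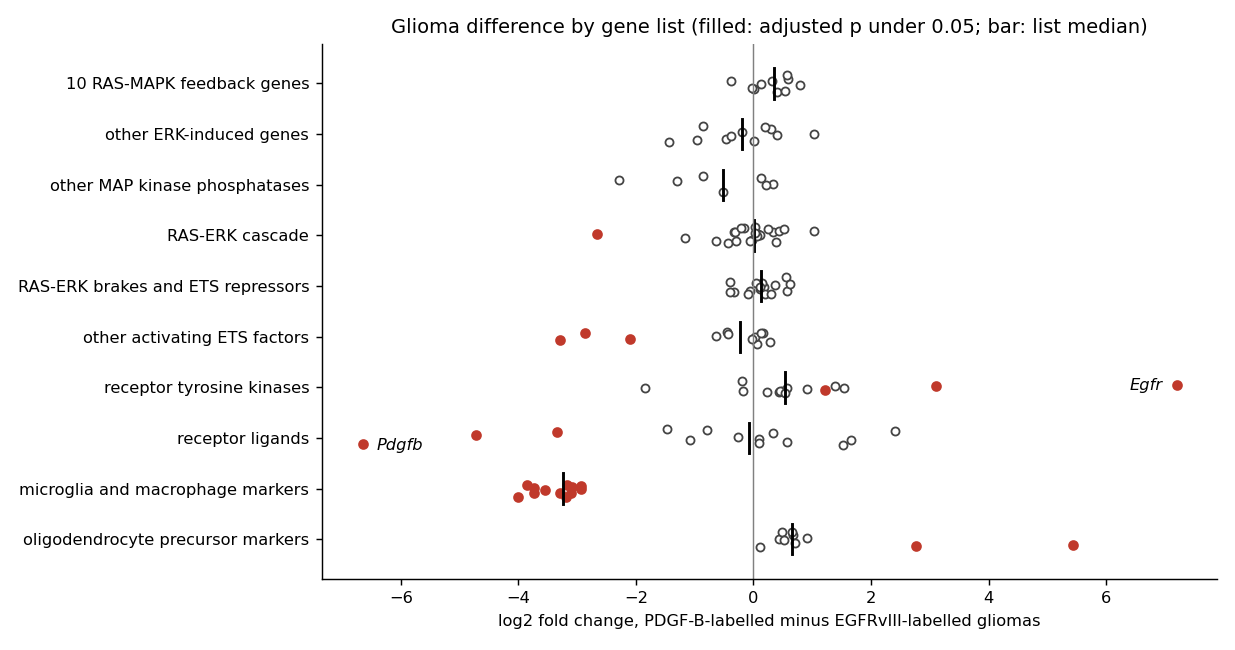
Log2 fold change of single genes (points) in gliomas labelled PDGF-B minus EGFRvIII, by list, with the list median as a bar (filled, limma adjusted p under 0.05). The 10 feedback genes lie between -0.39 and 0.79 with none filled, while Egfr is at 7.20, Pdgfb at -6.65 and the 12 macrophage markers are all filled.

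The genes whose levels ran most like those of the most abundant member of each group were found by the root mean square difference of centred log2 CPM over the 7 libraries, among 10572 named genes with a mean of at least 10 CPM. For Etv4 they were Adcy5, an adenylyl cyclase gene, and Zfp536, a zinc finger gene, at differences of 0.086 and 0.12, where Etv4 itself varied by 0.64. For Spry1 they were Parp8 and Slc22a17, at 0.087 and 0.11, where Spry1 varied by 0.57. Spred1 and Dusp6 varied by only 0.25 each, and their nearest genes were Fbxo9 and Wipi1 for Spred1, at 0.073 and 0.079, and Fam173a and Extl3 for Dusp6, at 0.064 and 0.084.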

How the data were processed

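Per the file headers, the authors deposited log2 CPM values (counts relative to library size, scaled between libraries) for 6 libraries. No unit stands in the header for EGFRvIII replicate 3, whose lowest value, -4.12, is that of the others. Per the submitters' processing notes, STAR, edgeR and the mm10 build were used, without versions; no source used here gives the counter, gene filter or scaling method. Low values above the floor were all multiples of 0.01 read (tolerance 0.001 read), and 36.3% to 38.6% of values above it were whole reads (within 0.02), so they derive from estimated counts plus a prior of 2 reads. Reads and CPM without that prior were recovered from them. Intervals cover only the spread between these libraries.

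The deposited values of all 17422 genes were fitted with limma 3.58.1 in R 4.3.3 (intensity trend, robust moderation), with Benjamini-Hochberg adjustment. Fold changes understate changes of genes with few reads. The glioma comparison used the 6 gliomas; comparisons with the culture used all 7 libraries in 3 groups. Each had 4 residual degrees of freedom. The fit was tested on simulated data. GENCODE M21 (GRCm38) gave symbols for 17247 IDs, coordinates and exon lengths, and RefSeq the promoters. The members and lists were chosen with earlier results of these data known. Named genes are the 10 members, at most 3 called genes of smallest p per list and comparison (or the smallest p where none was called), the driver genes, and for the most abundant member of each family the 2 genes of nearest pattern. Outside this rule, and after their values were seen, Cic, Nes, the macrophage markers at 0 in the culture and the gene overlapping Spry1 are also named. Alternatives covered scaling, prior, a CPM minimum, voom, moderation, the libraries fitted, a replicate block and leaving out each glioma.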

Additional observations from a re-analysis of the deposited data

Results flagged for a closer look

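Egfr, Pdgfb and Cdkn2a, genes that check the labels, were flagged because they differed between the glioma groups. For each, the glioma groups lay on opposite sides of the 1 culture library. In gliomas labelled EGFRvIII, Pdgfb and Cdkn2a were not called against the culture (limma adjusted p = 0.716 and 0.434). The difference between the glioma groups was tested for each with limma. For Egfr, gliomas labelled PDGF-B exceeded those labelled EGFRvIII by a log2 fold change of 7.20 (limma adjusted p = 0.000187). For Pdgfb they were lower, with a log2 fold change of -6.65 (limma adjusted p = 0.000838). For Cdkn2a, the Ink4a/Arf gene that the EGFRvIII model is described as lacking, they were lower, with a log2 fold change of -2.31 (limma adjusted p = 0.0318), at 3.82 ± 1.05 CPM in gliomas labelled PDGF-B and 19.98 ± 7.84 CPM in gliomas labelled EGFRvIII (SD, n = 3 each), with 10.7 CPM in the culture. None of the 10 feedback genes was called between the glioma groups, and groups of 3 are too small for a test of single libraries.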

How the results depend on the processing

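Of 430 values of the 10 genes under alternatives, 412 kept their direction and their side of the threshold, 13 reversed, 3 lost a call and 2 gained one; for all of these the cause was not tested. In gliomas labelled PDGF-B minus EGFRvIII, Dusp4 reversed to 0.077 with library totals and 0.080 with median centring, and ran from -0.39 to 0.21 on leaving out one glioma, and Spry2 ran from -0.076 to 0.14. In gliomas labelled PDGF-B minus culture, library totals reversed Spry2 to 0.011 and Etv5 to 0.11, and leaving out one glioma gave -0.19 to 0.028 for Spry2 and -0.10 to 0.14 for Etv5. Spry4 in gliomas labelled EGFRvIII minus culture ran from -0.0075 to 0.54. Library totals moved the median log2 fold change of all genes in gliomas labelled PDGF-B minus culture to 0.15, from 0.04, and median centring that in gliomas labelled EGFRvIII minus culture to -0.10, from 0.01.

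Genes called between the glioma groups, 583 in all, numbered 4 to 1282 on leaving out one glioma. Those called in gliomas labelled PDGF-B against the culture, 1647 in all, numbered 553 with voom, 721 with only the 4 libraries compared and 854 to 2303 on leaving out one glioma. Those called in gliomas labelled EGFRvIII against the culture, 1663 in all, numbered 721 with voom and 1058 to 2030 on leaving out one glioma. Of the 10 genes, 0 to 3 were called in gliomas labelled PDGF-B against the culture on leaving out one glioma, and 0 with only the 4 libraries compared. Over its 14 alternatives there, Etv4 had adjusted p of 0.0130 to 0.0831 in limma. The replicate numbers share only a number: deviations of same-numbered gliomas correlated at 0.191, -0.041 and -0.097 over 15162 genes, and not every glioma correlated best with its own number. A replicate block gave 18 called genes between the glioma groups and 0 of the 10; the culture has no number to pair.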
